A study of Mus musculus with 3 samples.

Results

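Dense KLF4 peak clusters are stretches of the mouse genome in which binding sites of the transcription factor KLF4 lie close together in embryonic epidermis. They were chosen by KLF4 peak position alone: on each chromosome consecutive KLF4 peaks with centres at most 12.5 kb apart were joined into a run, and runs of 6 or more peaks were kept, each spanning from the start of its first peak to the end of its last. Of 25379 runs, counting 15467 lone peaks as runs of 1, 990 (3.90%) met this rule, and they held 7699 of the 47140 KLF4 peaks on chromosomes (16.3%). The data were chromatin immunoprecipitation sequencing (ChIP-seq) libraries from the dorsal epidermis of E18.5 wild-type embryos: 1 library precipitated with an HDAC3 antibody (Abcam ab7030), 1 with a KLF4 antibody (R&D AF3158) and 1 input library with no antibody. Peak lists called by the authors against that same input gave 57936 HDAC3 peaks from 56787485 tags and 47155 KLF4 peaks from 61432711 tags. Since each antibody had a single library, no replicate spread existed and no difference was tested; brackets after a share give its exact Clopper-Pearson interval (95%), for counting error only. PCR copies are not independent molecules, and a peak in bulk tissue does not tell how many of its cells carry the factor from how much each cell carries.

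KLF4 is a zinc finger factor of the differentiating layers of the epidermis, required for the skin barrier, and it binds CACCC and GC-rich elements. HDAC3 is the class I histone deacetylase of the NCoR and SMRT corepressor complexes and reaches DNA through other proteins. Stretches with many binding sites of a tissue's own regulators are often found at genes that characterise the tissue, and they usually combine promoters, introns and intergenic elements.

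Binding at promoters is shown by the sequences with the highest KLF4 peaks. Of the promoters in a RefSeq table of GRCm38.p6, 321 had a dense-cluster KLF4 peak over the 250 bases before their start as the highest KLF4 peak there. The 5 with the highest-scored peaks are printed 5′ to 3′ from that table, because they are where a dense cluster reaches a promoter most strongly. Capitals mark CACCC or its complement GGGTG; the last base lies next to the start.
Lypd5 (chr7:24348946-24349195, plus strand): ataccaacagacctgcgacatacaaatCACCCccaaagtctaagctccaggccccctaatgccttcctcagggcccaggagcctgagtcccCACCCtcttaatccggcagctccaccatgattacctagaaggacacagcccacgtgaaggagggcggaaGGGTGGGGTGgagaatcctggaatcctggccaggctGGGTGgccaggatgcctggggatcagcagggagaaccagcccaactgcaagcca
Krtdap (chr7:30787655-30787904, plus strand): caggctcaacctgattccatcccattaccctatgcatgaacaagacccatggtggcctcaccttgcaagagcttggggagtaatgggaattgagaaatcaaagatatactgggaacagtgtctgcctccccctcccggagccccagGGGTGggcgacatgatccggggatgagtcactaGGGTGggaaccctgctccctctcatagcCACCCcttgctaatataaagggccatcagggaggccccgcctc
Il22ra1 (chr4:135727909-135728158, plus strand): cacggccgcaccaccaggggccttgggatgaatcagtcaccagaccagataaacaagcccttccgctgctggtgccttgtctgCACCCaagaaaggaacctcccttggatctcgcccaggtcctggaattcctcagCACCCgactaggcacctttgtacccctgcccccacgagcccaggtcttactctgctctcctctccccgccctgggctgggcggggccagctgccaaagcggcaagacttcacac
Cers3 (chr7:66743254-66743503, plus strand): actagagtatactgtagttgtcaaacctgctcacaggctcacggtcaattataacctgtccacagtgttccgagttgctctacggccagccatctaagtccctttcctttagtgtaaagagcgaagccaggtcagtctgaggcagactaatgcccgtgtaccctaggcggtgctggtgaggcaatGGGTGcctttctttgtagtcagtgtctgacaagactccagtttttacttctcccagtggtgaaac
Cldn4 (chr5:134946935-134947184, minus strand): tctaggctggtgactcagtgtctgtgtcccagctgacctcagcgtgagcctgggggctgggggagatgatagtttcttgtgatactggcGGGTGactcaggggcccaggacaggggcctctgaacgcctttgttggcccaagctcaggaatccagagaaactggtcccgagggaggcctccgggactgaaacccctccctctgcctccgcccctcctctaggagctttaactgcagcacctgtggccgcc

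The highest of these peaks lay at Lypd5, which encodes a membrane-anchored protein of the LY6/PLAUR family. Its KLF4 peak had a score of 557, where the score is the position-adjusted tag number given by the authors' caller, and an HDAC3 peak of score 93 lay on it. The peak at Krtdap, a keratinocyte differentiation gene, scored 503 for KLF4 and 125 for HDAC3, and it was the last peak of a cluster of 10 that runs through the neighbouring Dmkn and Sbsn. At Il22ra1, a subunit of the interleukin 22 receptor, the scores were 441 and 110. At Cers3, the ceramide synthase of the skin barrier, they were 438 and 142. At Cldn4, a tight junction claudin, they were 406 and 161. All 5 promoters were thus under peaks of both factors; the next in order, Klk10, a kallikrein protease gene, had a KLF4 peak of 390 and no HDAC3 peak on it.

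The letters of these promoters varied. CACCC, counted on both strands with overlaps between matches allowed, occurred 5 times at Lypd5, 3 times at Krtdap, 2 times at Il22ra1 and 1 time each at Cers3 and Cldn4. It was in 64.2% (58.7 to 69.4) of the 321 promoters under a dense-cluster KLF4 peak, in 61.6% (59.2 to 63.9) of 1680 under another KLF4 peak and in 54.2% of all 21238 promoters. The longer CCACACCC was in 7.79% (5.10 to 11.3), 6.19% (5.09 to 7.45) and 3.32% of the same sets. CCGCCC was in 55.8%, 58.5% and 42.6%. For CACCC and CCACACCC, the intervals of promoters under dense-cluster peaks and under other KLF4 peaks overlapped. TGANTCA, the letters bound by AP-1, was in 11.8% (8.52 to 15.9) under dense-cluster peaks, in 7.86% (6.62 to 9.25) under other KLF4 peaks and in 6.14% of all promoters. GGAAGT, the letters of ETS factors, went the other way, with 20.9% (16.6 to 25.7), 28.2% (26.0 to 30.4) and 20.4%; the intervals of the former sets overlapped for AP-1 and did not for ETS. TTGCNNAA, a C/EBP element, was in 14.3%, 9.94% and 9.10%. Shares for AGATAA were 9.35%, 7.50% and 8.81%, for TATAAA 9.97%, 8.39% and 11.6%, and for AACNGGTT 1.25%, 2.14% and 1.69%. A match describes letters in a window and is not a binding site.

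The clusters were compact. Their median length was 34.35 kb, with quartiles of 27.5 and 44.4 kb and a range of 10.4 to 144.0 kb, and 7 were longer than 100 kb. The median number of KLF4 peaks was 7, the upper quartile 9 and the maximum 27. Most were near the lower limit: 391 had 6 peaks and 220 had 7. Neighbouring peaks were typically 5.46 kb apart, which is the median over clusters of the median gap. Together the clusters covered 37.5 Mb, 1.88% of the effective genome size used by the caller, and carried 23.5% of the KLF4 tag signal summed over peaks. Chromosome 11 had the most clusters (99, with 22.5% of its KLF4 peaks) and the X chromosome had 7 (5.71%). The Y chromosome, with 11 KLF4 peaks, had none.

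KLF4 peaks within clusters were higher than the rest. The rule used the position of these peaks and not their height, but both come from the same KLF4 list, so this is a description. The median score was 97 in dense clusters and 59 among other KLF4 peaks, and the median fold over input was 9.85 and 8.37. The fold over the surrounding 10 kb did not follow, with 6.97 in clusters and 7.48 elsewhere, and the mean input count per peak was 4.88 tags against 3.74. At the edge of the rule, the 588 runs of 5 peaks had a median length of 22.0 kb and a median KLF4 score of 85, and the 391 runs of 6 had 28.2 kb and 88. The runs on either side of that limit were close in height and continuous in length.

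HDAC3 peaks, which the rule did not use, lay in nearly all clusters. An HDAC3 peak was centred inside 970 of the 990 clusters (98.0%, 96.9 to 98.8). In 948 (95.8%) an HDAC3 peak overlapped a KLF4 peak of the cluster by at least 1 bp, counting also HDAC3 peaks centred just past the edge. The median number of HDAC3 peaks centred inside was 3, the range 0 to 12, and 296 clusters (29.9%) held 5 or more. Of the runs of 5 peaks, just outside the rule, 93.2% held an HDAC3 peak, and of the runs of 6, 96.7% did. Of all runs of 2 to 5 peaks, with a median length of 8.62 kb, 67.6% did. Longer regions have more room to hold a peak, and the part of length in these shares was not tested. The number followed cluster size: clusters of 6 KLF4 peaks held a mean of 2.77 HDAC3 peaks, clusters of 8 to 9 held 4.06, and clusters of 13 to 27 held 7.68. Per length it was level, with 0.971 HDAC3 peaks per 10 kb in clusters of 6, 0.980 in clusters of 8 to 9 and 0.937 in clusters of 13 to 27. The 20 clusters without HDAC3 comprised 13 with 6 KLF4 peaks and 7 with 7; every cluster of 8 or more held at least 1.

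Of the KLF4 peaks in clusters, 37.0% (35.9 to 38.1; 2850 of 7699) were overlapped by an HDAC3 peak, beside 31.7% of all KLF4 peaks and 30.7% (30.3 to 31.2; 12112 of 39441) of those outside clusters. The difference was 6.31 percentage points (5.14 to 7.48, a 95% interval by normal approximation for counting error). The share rose with run size below the limit of the rule and changed little above it. Lone KLF4 peaks were overlapped in 26.9% of cases, runs of 2 to 3 in 31.9%, runs of 4 to 5 in 36.0%, runs of 6 to 7 in 36.5%, runs of 8 to 9 in 36.7% and runs of 10 to 27 in 38.3% (36.2 to 40.4). The median KLF4 score rose through the same steps, from 46 in lone peaks to 64, 81, 91, 93 and 111.

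**Figure D1:**
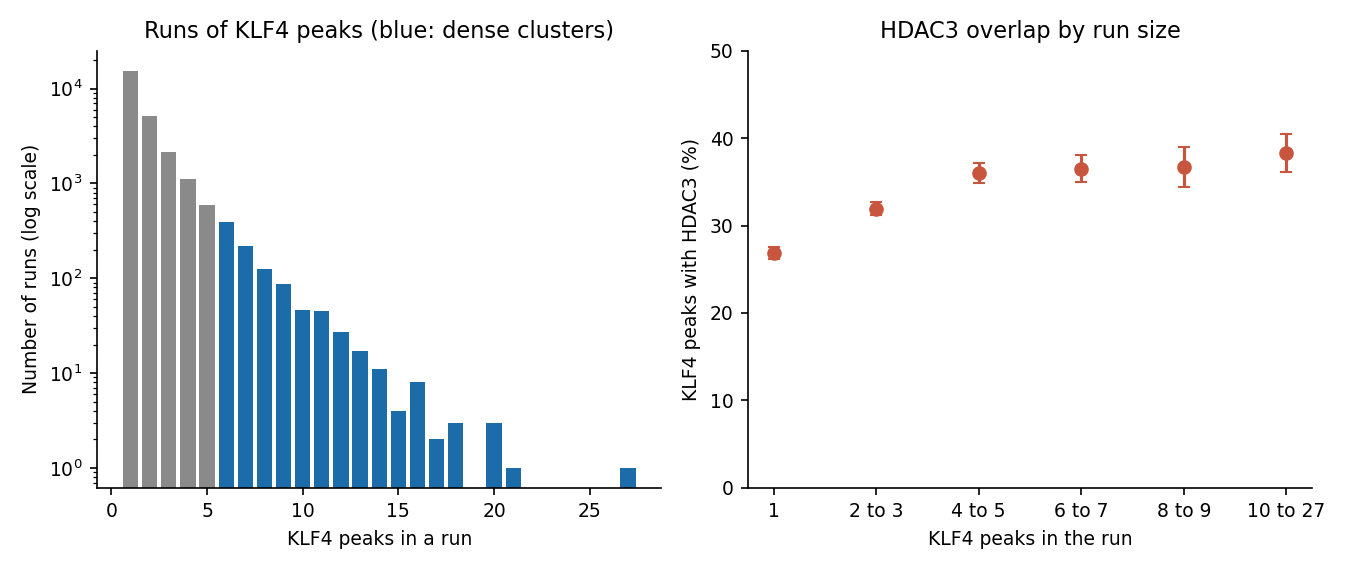
The left panel plots the number of runs (log scale) against the KLF4 peaks in a run, with the 990 dense clusters in blue. The right panel plots the percent of KLF4 peaks overlapped by HDAC3 against run size, with 95% intervals for counting error; the share rises from 26.9% in lone peaks to 36.0% in runs of 4 to 5 and lies between 36.5% and 38.3% in the dense clusters.

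When KLF4 peaks of like score were set side by side, the direction turned. The KLF4 list was divided by score into 5 classes of equal size. In the lowest class, 14.7% (11.3 to 18.6) of dense-cluster peaks and 14.1% (13.4 to 14.9) of other peaks had HDAC3. In the next, these were 18.7% (16.2 to 21.4) and 23.1% (22.2 to 24.0), and in the middle class 25.6% (23.5 to 27.9) and 27.8% (26.8 to 28.8). The following class gave 32.9% (30.9 to 35.0) and 37.6% (36.5 to 38.7). In the highest class, which held 36.6% of dense-cluster peaks and 16.8% of the others, the shares were 55.3% (53.4 to 57.1) and 59.0% (57.8 to 60.2). Clusters were thus below other peaks of like score in 4 of 5 classes; the intervals overlapped in the lowest and the middle class and not in the others. With other peaks weighted to the scores of the dense clusters in 20 bins, their share became 41.3%, which put the clusters 4.23 percentage points lower.

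That direction depended on the measure used for the weighting. Weighted to the fold over input, the other peaks came to 33.7%, with clusters 3.32 points higher, and weighted to the fold over the surrounding 10 kb they came to 28.8%, with clusters 8.23 points higher. At like score the surroundings differed: in the highest class the median fold over the surrounding 10 kb was 10.8 in clusters and 15.5 elsewhere. Both peak lists required 4-fold enrichment over that 10 kb, a step that removed 58228 putative HDAC3 peaks across the genome. Its part in the lower share at like score was not tested.

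**Figure D2:**
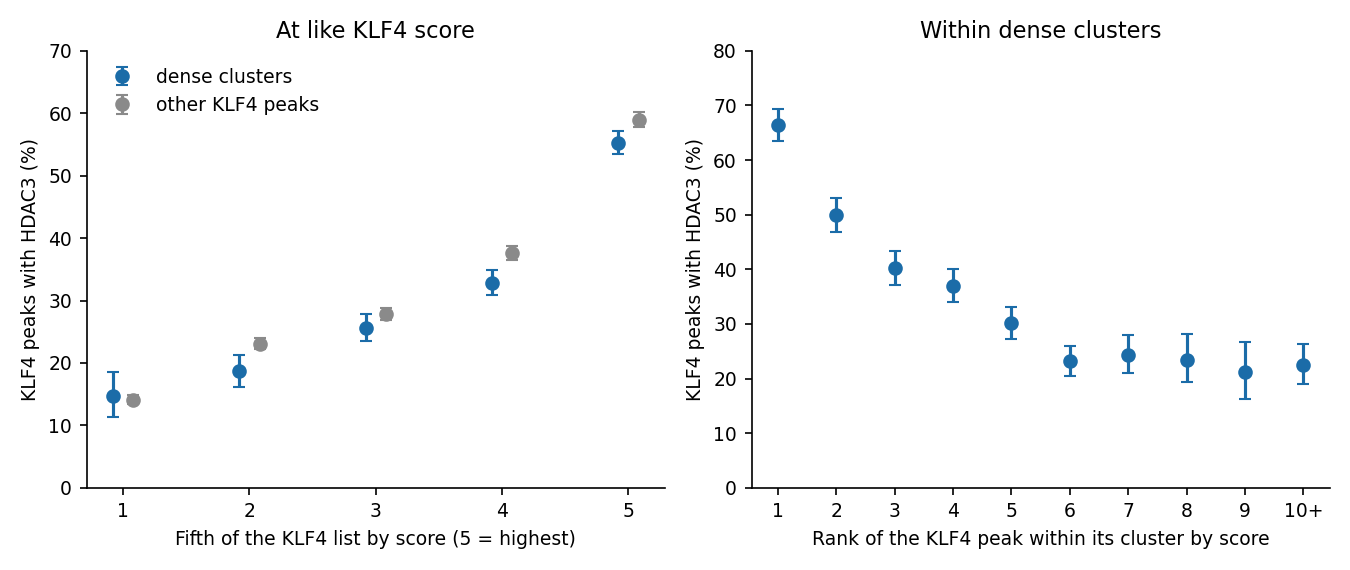
The left panel plots the percent of KLF4 peaks overlapped by HDAC3 in each of 5 classes of the KLF4 list by score, for dense clusters (blue) and other KLF4 peaks (grey); in the highest class they stand at 55.3% and 59.0%. The right panel plots the same percent by the KLF4 peak's rank within its cluster, falling from 66.5% at the highest peak to 23.1% at rank 6. Ranks from 7 on exist only in larger clusters. Bars are 95% intervals for counting error.

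Within a cluster HDAC3 went with the height of the KLF4 peak. The highest KLF4 peak of a cluster was overlapped by HDAC3 in 66.5% of clusters (63.4 to 69.4), the next in 49.9%, the third in 40.2%, the fourth in 37.0%, the fifth in 30.1% and the sixth in 23.1%. From rank 7 on, the share stayed between 21.2% and 24.4%, and the median KLF4 score between 61 and 66. By place along the cluster, 36.6% (34.4 to 38.7) of first and last peaks and 37.2% (35.9 to 38.4) of inner peaks had HDAC3. Their median KLF4 scores were 84 and 102, and place at like score was not tested. Clusters varied widely, from 0% to 100% of their KLF4 peaks with HDAC3, with a median of 33.3% and quartiles of 22.2% and 50%. More than 50% were overlapped in 177 clusters (17.9%). Only the cluster of 6 peaks across Senp3, Eif4a1, Cd68 and Sox15 at chr11:69656229-69692722 had HDAC3 on all of them; it was singled out after its values were seen.

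Of the HDAC3 list, 3641 of 57920 peaks (6.29%) lay inside dense clusters. Among the highest 10% of HDAC3 peaks by score, 1627 of 5898 (27.6%, 26.4 to 28.8) did. The median HDAC3 score was 49 inside and 21 outside. For HDAC3 peaks on a KLF4 peak it was 54 inside and 40 outside, and for those off KLF4 31.5 inside and 19 outside. The mean input count at HDAC3 peaks was also higher inside, 4.64 tags against 2.51; its part in the higher scores was not tested. Of the HDAC3 peaks inside, 2805 (77.0%) overlapped a KLF4 peak, beside 25.8% of all HDAC3 peaks and 22.4% outside clusters. The choice of regions rich in KLF4 raises this share, so nothing is read from it.

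Where both factors met, their peaks coincided closely. In overlapping pairs within clusters, the median distance between centres was 29 bp (quartiles 13 and 56), where the overlap itself allowed up to 184 bp. The highest HDAC3 peak of a cluster lay on a KLF4 peak in 893 of 970 clusters (92.1%). The choice of regions rich in KLF4 raises this share too, so nothing is read from it. In 419 (43.2%, 40.0 to 46.4) the KLF4 peak under it was the cluster's highest, in 189 (19.5%) the second, and in 285 (29.4%) a peak of lower rank. The 836 HDAC3 peaks off KLF4 had their nearest KLF4 centre of the cluster at a median of 1330 bp.

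HDAC3 was also followed outwards from the clusters. Inside there were 0.970 HDAC3 peaks per 10 kb, 0.748 of them on KLF4 and 0.223 off it. From 0 to 12.5 kb outside, a zone the rule keeps nearly clear of KLF4, there were 0.328, of which 0.0214 were on KLF4. Density was 0.515 at 12.5 to 25 kb, 0.464 at 25 to 50 kb and 0.431 at 50 to 100 kb. Shorter runs were above the clusters, with 1.02 per 10 kb in runs of 5 and 1.12 in runs of 2 to 5. Every run begins and ends on a KLF4 peak, so shorter runs have less length per KLF4 peak. The part of this in their higher density was not tested. Per length, HDAC3 peaks were thus not denser in clusters than in shorter runs. They were denser inside clusters than in the zones outside, and mostly where KLF4 peaks were. Off KLF4 there was no such excess: counted over the 34.9 Mb of cluster clear of KLF4 peaks, HDAC3 peaks numbered 0.240 per 10 kb, below the 0.285 to 0.306 in the zones outside. That order depended on height. Among HDAC3 peaks of score 22 or more, the list's median, there were 0.200 inside and 0.200 in the nearest zone, and of score 32 or more, its upper quartile, 0.120 inside and 0.0760 in the nearest zone, falling to 0.0466 at 50 to 100 kb. The caller kept only peaks with 4-fold enrichment over the surrounding 10 kb. The part of that step in these densities off KLF4 was not tested.

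**Figure D3:**
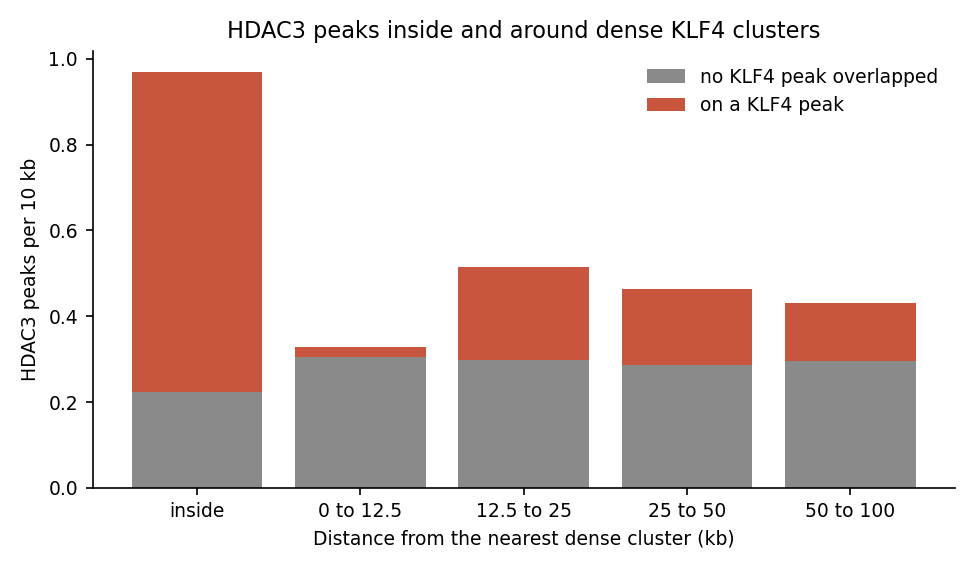
Bars give HDAC3 peaks per 10 kb inside dense clusters and in 4 zones of distance from the nearest cluster, split into peaks on a KLF4 peak (red) and off it (grey). The total is 0.970 inside and 0.328 to 0.515 outside, and the grey part alone is 0.223 inside and 0.285 to 0.306 outside.

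The clusters were then placed on genes. Of 21887 protein-coding genes, 1402 (6.41%) overlapped a cluster with any part of their body, and of 17469 genes with a start in the promoter table, 803 (4.6%) had a start inside a cluster. A single protein-coding gene was overlapped by 480 clusters (48.5%), 5 or more by 39, and 10 at most. None of the starts in that table lay in 493 clusters (49.8%), and in 606 (61.2%) no KLF4 peak was centred within 1 kb of one. Genes without an entry can have starts in these clusters, so both counts are upper limits. With either end of such genes also counted as a possible start, the counts were 379 (38.3%) and 517 (52.2%). Within 1 kb of a start in the table lay 8.33% (7.72 to 8.97) of cluster KLF4 peaks, beside 8.1% of all KLF4 peaks. No protein-coding gene was overlapped by 186 clusters (18.8%): the nearest gene was a median of 26.4 kb away, within 10 kb in 60 clusters and beyond 100 kb in 31. Several genes held more than 1 cluster: Rora, a nuclear receptor gene, held 3, and Notch2, Pou2f3, Plekha6 and Nectin1 were among those with 2. Of 1005 microRNA hairpins, 49 (4.88%) lay in a cluster.

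The largest cluster, of 27 KLF4 peaks over 144.0 kb at chr17:29376028-29520006, ran from inside Fgd2 across Pim1, a serine/threonine kinase gene, to Tmem217. KLF4 scores ranged from 46 to 397. HDAC3 had 12 peaks, 10 of them on KLF4, and the highest of each list coincided 22.8 kb outside Fgd2, with 397 for KLF4 and 117 for HDAC3. A pair of high KLF4 peaks 51.8 and 52.5 kb into the cluster, of 374 and 295, had no HDAC3 peak, while lower KLF4 peaks of 79 and 98 had 1 each. At Pim1, a KLF4 peak of 112 inside the gene had no HDAC3. It was the cluster's only KLF4 peak within 1 kb of a start in the promoter table. The nearest KLF4 peak outside the gene, of 131 and not within 1 kb of such a start, had HDAC3 at 75.

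The cluster around Fos, an AP-1 subunit induced by many stimuli, had 21 KLF4 peaks over 110.7 kb at chr12:85379618-85490294 and 12 HDAC3 peaks, 9 of them on KLF4. Fos is the only protein-coding gene it overlapped, and no KLF4 peak lay within 1 kb of the Fos start. A group of 3 KLF4 peaks between 70.4 and 72.8 kb into the cluster scored 171, 386 and 257 and carried HDAC3 peaks of 149, 155 and 138. The highest HDAC3 peak, of 186, lay 18.7 kb outside Fos with no KLF4 peak on it. At the other end of the cluster, 9 of the first 11 KLF4 peaks scored at most 121, and 1 of these 11 had HDAC3.

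Envelope and junction genes were in the next largest. The cluster of Evpl, which encodes envoplakin, a precursor of the cornified envelope, held 20 KLF4 peaks over 105.9 kb. The highest peaks of both factors lay inside Evpl, 592 for KLF4 and 190 for HDAC3, and 7 of the 20 KLF4 peaks had HDAC3. The cluster at chr5:134918133-135024333 had 20 KLF4 peaks over 106.2 kb around the claudin genes Cldn4 and Cldn3. There the highest peaks of both factors lay at the Cldn4 promoter printed above, and 5 KLF4 peaks had HDAC3. The KLF4 peak within 1 kb of a start nearest Cldn3 scored 82 and had no HDAC3. Both factors thus had their higher peak at Cldn4.

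**Figure D4:**
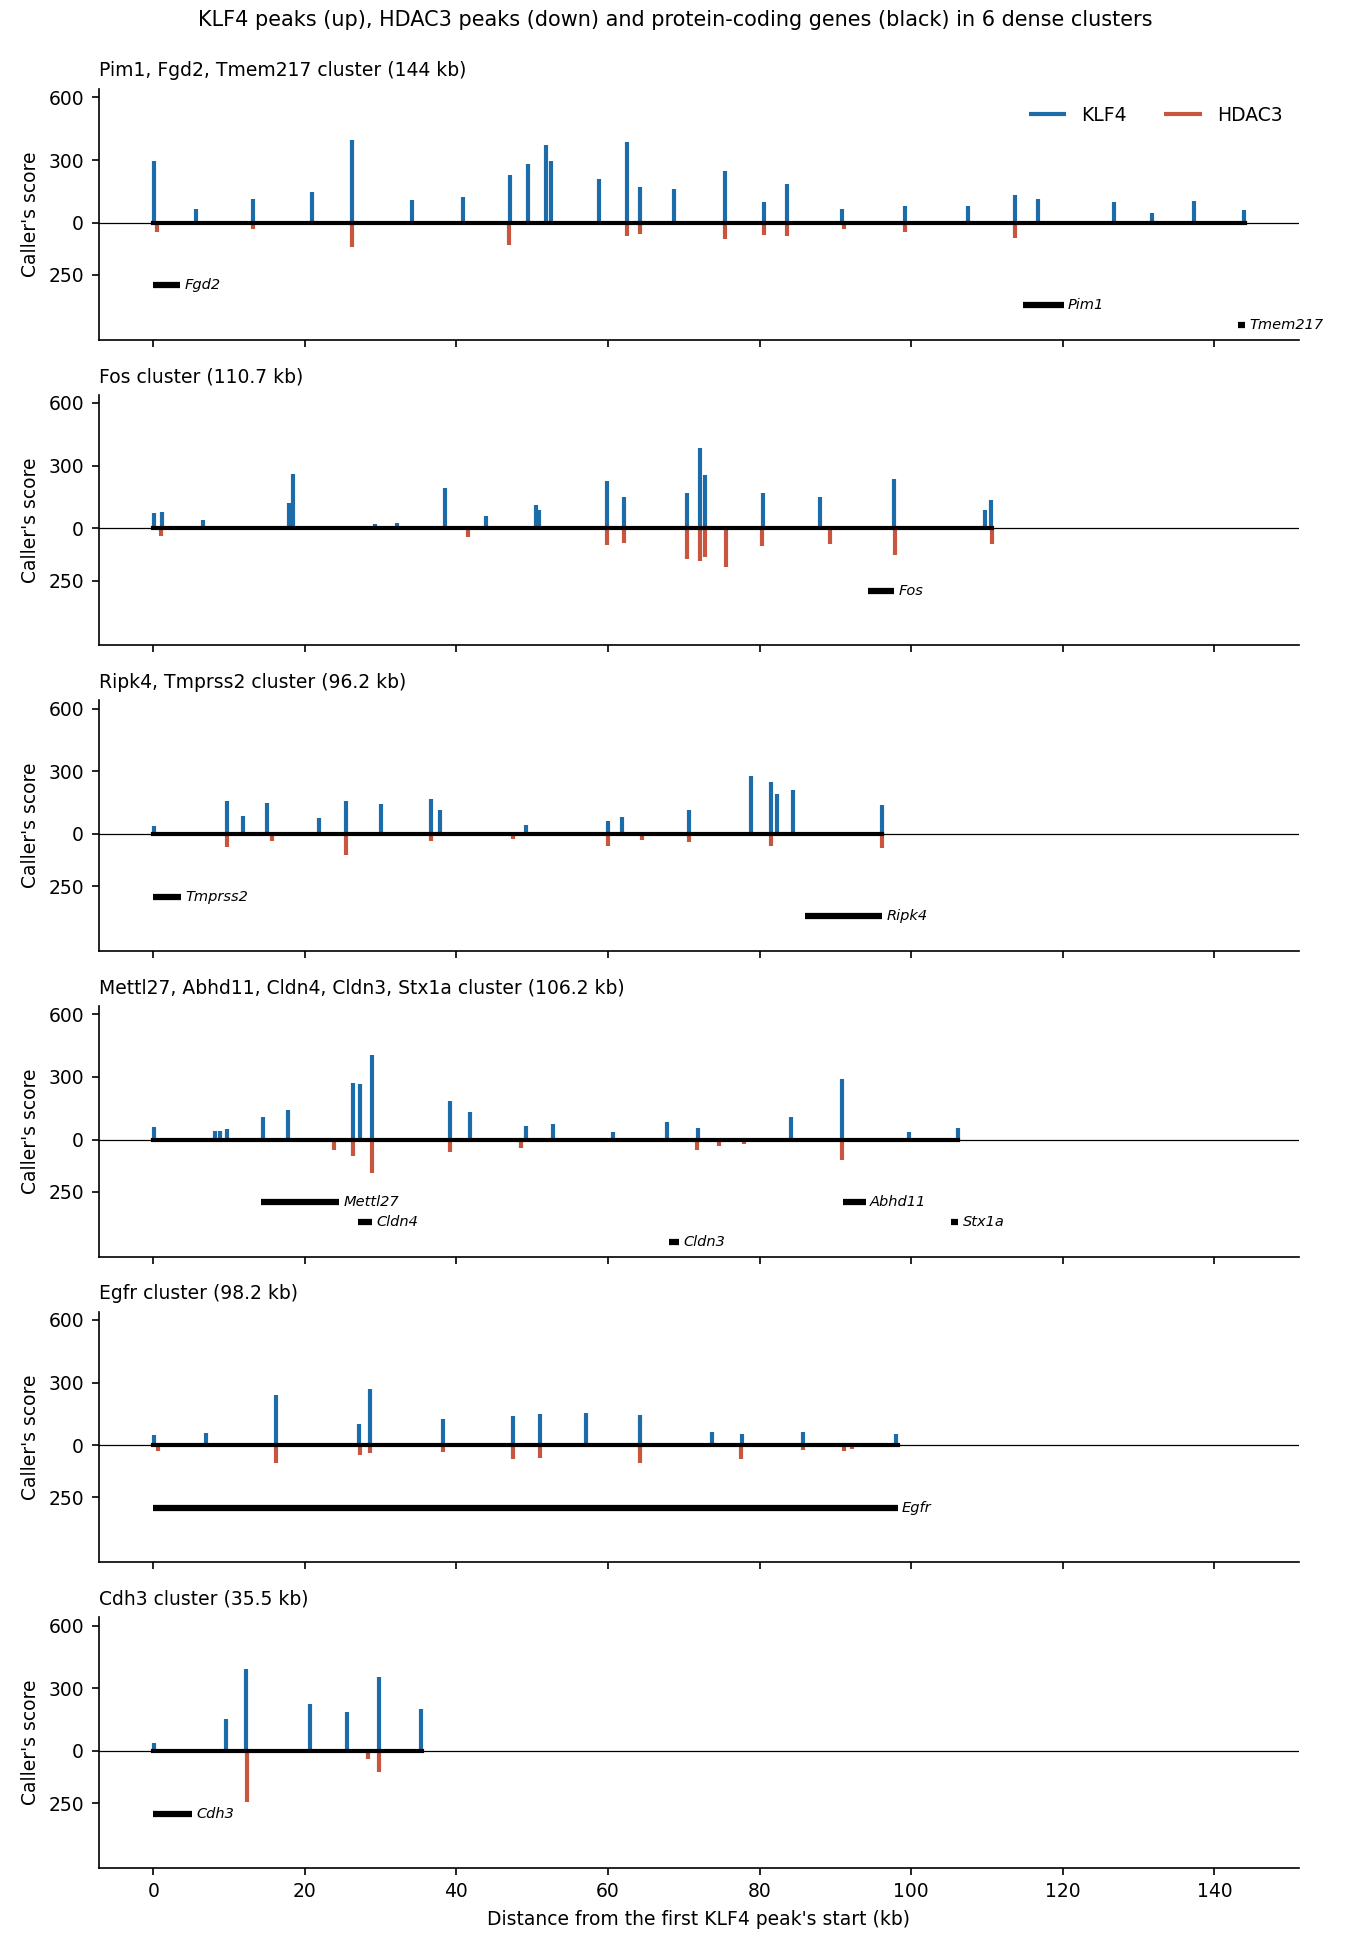
Each panel is 1 dense cluster, with distance from its first KLF4 peak's start in kb on the horizontal axis; bars up are KLF4 peaks and bars down are HDAC3 peaks, each as tall as its score within its own list, and black bars are protein-coding genes drawn only where they lie in the cluster. The Pim1 cluster has 27 KLF4 and 12 HDAC3 peaks, the Fos cluster 21 and 12, the Ripk4 cluster 18 and 10, the Egfr cluster 14 and 12 and the Cdh3 cluster 7 and 3.

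The other named clusters with many KLF4 peaks had 16 to 20 of them and 7 to 10 HDAC3 peaks. The cluster of Mapkapk3, a kinase downstream of p38, and Cish, a cytokine signalling inhibitor, had 20 KLF4 and 9 HDAC3 peaks at chr9:107267099-107359088. Ripk4, a kinase needed for epidermal differentiation, and Tmprss2, a serine protease gene, shared a cluster of 18 and 10. The cluster of Tmem45a had 18 and 9 over 126.6 kb, that of Pinx1 and Sox7 17 and 7, that of Ahnak, a large scaffold protein gene, 17 and 10, and that of the receptor gene Erbb2 and its adaptor gene Grb7 16 and 7. Intergenic examples were a cluster of 18 KLF4 and 7 HDAC3 peaks whose nearest gene, the homeobox gene Barx2, was 131.6 kb away, and 1 of 16 and 8 lying 0.9 kb from Pou3f1, a POU factor gene. Of 8 clusters with 16 KLF4 peaks, those at Erbb2 and Pou3f1 had the highest summed KLF4 score and the other 6 are left out of the following ranges. In the clusters named here the highest KLF4 peak ranged from 276 to 453 and the highest HDAC3 peak from 100 to 156; in those 6 left out, at Foxo3, Abcc3, Epha2, Areg and Cd9 and near Jarid2, they were 107 to 586 and 51 to 98.

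Besides the Pim1 and Fos clusters, 6 others stood out by their number of HDAC3 peaks. The Egfr cluster, inside the epidermal growth factor receptor gene at chr11:16753254-16851410, had 14 KLF4 and 12 HDAC3 peaks, 8 of the latter on KLF4, and none of them higher than 83. Sh3d19 had 14 and 11, Spint2, a protease inhibitor gene, 13 and 11, Wdfy2 15 and 11, and Zbtb7c, at chr18:76034669-76128366, 15 and 10 with a highest HDAC3 peak of 216. Zbtb7c had the highest summed HDAC3 score of the 8 clusters with 10 HDAC3 peaks. A cluster 17.0 kb from Cryl1 had 15 and 11, with HDAC3 scores of at most 57. High numbers of HDAC3 peaks thus came with both low and high HDAC3 scores.

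The highest single HDAC3 peaks were in 6 clusters, of which Zbtb7c is given above. The cluster that begins in Cdh3, the P-cadherin gene of basal keratinocytes, had 7 KLF4 peaks in 35.5 kb at chr8:106551762-106587231, and its HDAC3 peak of 245 lay on its KLF4 peak of 390, 7.2 kb outside the gene. Its next-highest KLF4 peak, of 356, had HDAC3 at 102, and the other KLF4 peaks, of 40 to 223, had none. A cluster 35.2 kb from Anxa3, an annexin gene, had HDAC3 at 223 on KLF4 at 653. Hdac5, a class IIa deacetylase gene, had 223 on 349, and Plekha6 had 214 on 620, both inside the gene. The cluster of Gast and Eif1 had 216 on 534, outside both genes and 19.2 kb outside Krt42, the nearest gene. In all 6 clusters the highest peaks of both factors coincided.

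Of the clusters with no HDAC3 peak, 7 had the most KLF4 peaks, 7 each, and the 6 with the higher summed KLF4 score are described. The highest KLF4 peak in them was 275 across the proton channel genes Otop3 and Otop2, 227 at Etv6, an ETS repressor gene, 196 at Pik3r2 and Rab3a, 144 in a cluster 59.0 kb from Thy1, 107 at Mcc and 85 at Zfp385c and Kat2a, the latter a histone acetyltransferase gene. The remaining cluster, at Rps6ka6, had a highest KLF4 peak of 36. At Mcc, an HDAC3 peak centred just past the cluster's edge overlapped 1 of its KLF4 peaks. A KLF4 peak of 275 without HDAC3 lies in the highest score class of the list, where 55.3% of cluster peaks had it. The tightest clusters, 10.4 to 12.2 kb long with 4.93 to 5.84 KLF4 peaks per 10 kb, were at Ggh, Il1rl2, Lsm4 and the pair Arap1 and Stard10, and each had 1 HDAC3 peak, of score 32 to 69.

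The genes of the epidermis were then followed through lists ordered by role. Of 38 cornified envelope and late differentiation genes, 12 (31.6%) overlapped a dense cluster, beside 6.41% of all protein-coding genes. This share moved strongly with the rule: it was 10.5% with joining at 10 kb, 60.5% at 15 kb and 15.8% with at least 8 peaks, while the share of all genes was 3.49%, 9.69% and 2.91%. Flg2, a filaggrin-type gene, lay in a cluster of 8 KLF4 and 10 HDAC3 peaks, with HDAC3 on 7 of the KLF4 peaks. Involucrin (Ivl) had 8 and 6, with a highest KLF4 peak of 445, and periplakin (Ppl) 6 and 4. Transglutaminase 1 (Tgm1), which cross-links the envelope, had 9 and 7, with HDAC3 up to 133. Sprr1b and Sprr3, small proline-rich proteins, shared 1 cluster of 7 and 3, and Dmkn and Sbsn shared the cluster of 10 and 2 that ends at Krtdap. Corneodesmosin (Cdsn) had 7 and 3, cornulin (Crnn) 6 and 2, and the protease gene Klk5 6 and 2. Apart from Evpl, these genes lay in clusters of 6 to 10 KLF4 peaks, while HDAC3 ranged from 2 to 10 peaks.

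Barrier lipid genes had the highest share of the lists, 16 of 30 (53.3%). Gltp, a glycolipid transfer protein gene, held the highest KLF4 peak of any cluster, at 824, among 10 KLF4 peaks with 4 HDAC3 peaks of up to 160. Abca12, the lipid transporter of lamellar granules, had 7 KLF4 and 6 HDAC3 peaks, Cers3 9 and 4, and Elovl6, a fatty acid elongase gene, 14 and 7. The lipoxygenase genes Alox12b and Aloxe3 shared a cluster of 11 and 5, and all 5 HDAC3 peaks lay on KLF4. Pnpla1, an acylceramide synthesis gene, had 7 and 5, with HDAC3 on 5 KLF4 peaks. Cyp4f39, a fatty acid hydroxylase gene, had 9 and 4. Fabp5, a fatty acid binding protein gene, was the exception of this list, with 6 KLF4 peaks of up to 150 and no HDAC3 peak. Others were Ugcg, Elovl4, Abhd5, Ephx3, Acer1 and Dgat2, with 6 to 8 KLF4 and 2 to 6 HDAC3 peaks.

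Among desmosome, adherens and tight junction genes, 10 of 26 (38.5%) overlapped a cluster. Plakoglobin (Jup) had 7 KLF4 peaks of up to 653 and 5 HDAC3 peaks, and plakophilin 1 (Pkp1) 11 of up to 538 and 5; in both, HDAC3 was on 5 KLF4 peaks. Perp had 9 and 7, Cldn1 9 and 6, and occludin (Ocln) 6 and 5. Tjp3, with 7 KLF4 peaks of up to 300, had 1 HDAC3 peak of 42. Of 21 spinous layer and Notch genes, 6 (28.6%) overlapped, with keratin 10 (Krt10) at 7 and 6, Notch3 at 7 and 5, and Notch2 with 2 clusters of 9 and 7 and of 6 and 4. Dsc1, a desmosomal cadherin on both lists, had 10 and 7, and Ovol1, a zinc finger repressor gene, had 11 KLF4 peaks of up to 639 and 3 HDAC3 peaks. Of 21 basal layer and hemidesmosome genes, 3 (14.3%) did: Egfr, Cdh3 and keratin 14 (Krt14), the last with 7 KLF4 peaks and 1 HDAC3 peak of 97.

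Of 39 epidermal transcription factor genes, 12 (30.8%) overlapped a cluster. Zbtb7b had 12 KLF4 and 7 HDAC3 peaks, Grhl1, a grainyhead factor, 8 and 6, Zfp750, a differentiation factor, 6 and 5, and the peroxisome proliferator receptor gene Ppard 6 and 4. Prdm1, a transcriptional repressor, had 8 KLF4 peaks of up to 528 and 2 HDAC3 peaks, the higher at 179. The vitamin D receptor gene Vdr shared a cluster of 14 and 7 with Hdac7, and its partner gene Rxra had 6 and 1. The 3 clusters in Rora had 8 and 2, 6 and 3, and 9 and 4. Klf3, a relative of KLF4, had 8 and 2, and Barx2 itself had a cluster of 6 and 4. Of 20 immediate early genes, 5 (25%) overlapped: besides Fos, these were Junb with 6 and 3, Myc with 6 and 3, Ier5 with 8 and 5, and Atf3 with 8 and 5, where HDAC3 reached 193. Of 16 corepressor complex genes, 3 (18.8%) did: Hdac5, Hdac7 and the Groucho-type gene Tle3, whose 7 HDAC3 peaks came with HDAC3 on 7 of 12 KLF4 peaks.

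Marker lists were treated in the same way, although binding does not measure expression and so does not check the tissue label. Of 9 keratinocyte markers, 2 (Krt14 and Krt10) overlapped a cluster. None of 7 markers each of fibroblasts, melanocytes, endothelial cells, leukocytes and neurons did, and of 7 muscle markers 1 did, Myog, a myogenic factor gene at a cluster of 8 KLF4 peaks of up to 103. Among all protein-coding genes the share was 6.41%. Lists of 7 genes are too short to tell these counts from that share, so nothing is read from them. Gene length differed between lists: the median was 28.8 kb for barrier lipid genes, 5.06 kb for cornified envelope genes, 38.2 kb for fibroblast markers and 17.2 kb for all protein-coding genes. Longer genes have more room to overlap a cluster, and the part of length was not tested. In a count of starts inside a cluster length does not enter directly, though a gene with several listed starts has more chances. By that count, 9 of 31 cornified envelope genes (29.0%) and 8 of 24 barrier lipid genes (33.3%) had a start inside, beside 4.6% of all. Of basal layer and hemidesmosome genes, 1 of 12 (8.33%) did.

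**Figure D5:**
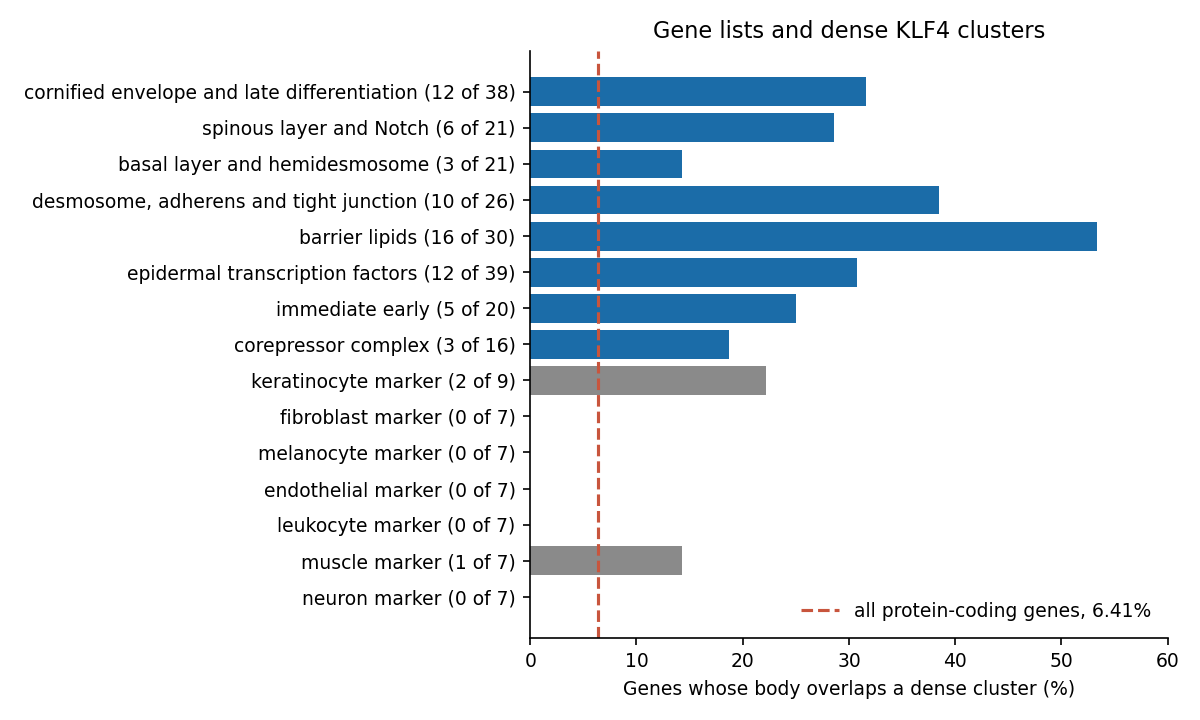
Bars give the percent of genes on each list whose body overlaps a dense cluster, with the count in brackets; blue bars are epidermal and regulatory lists and grey bars cell type markers. The dashed line marks the 6.41% of all protein-coding genes. Barrier lipid genes stand at 53.3% and the fibroblast, melanocyte, endothelial, leukocyte and neuron lists at 0%. These latter lists have 7 genes each, too few to tell 0% from 6.41%.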

How the data were processed

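ChIP-seq peak lists of 1 HDAC3 and 1 KLF4 library from wild-type E18.5 epidermis were analysed; samples were grouped by antibody as labelled, 1 per group. HOMER, STAR and bcl2fastq and the build GRCm38.p5 are named per the submitters' processing notes, and tool versions were not given in the sources used here. Peaks 185 bp wide and at least 370 bp apart were called for each library against the same input, per the file headers, at a Poisson p-value of 1e-04, a false discovery rate of 0.001 and 4-fold enrichment both over input and over 10 kb around the peak; the local step removed 28389 putative KLF4 peaks. The fold values are ratios deposited by the authors, the deposited tag signal is a normalised tag number, and the score is the deposited tag number, used within a list only. The deposited p-values and the focus ratio, a fraction given by the authors' caller, were not used.

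Runs were built with Python 3.11.15, pandas 2.3.3, numpy 2.4.6 and scipy 1.17.1, and figures with matplotlib 3.10.9; the joining step was tested on simulated data. Peaks on unplaced contigs (15 KLF4, 16 HDAC3) were left out. A centre distance of up to 184 bp counted as an overlap. Genes came from a RefSeq table of GRCm38.p6 with start and end, and promoter starts and strands from a second RefSeq table; exons were not analysed here. Named clusters were, by rule, the 12 with the most KLF4 peaks, the 8 with the most HDAC3 peaks, the 6 with the highest HDAC3 peak, the 6 without HDAC3 with the most KLF4 peaks, the 4 longest and the 4 densest, with ties in number settled by the higher summed score and up to 4 genes each, plus list genes overlapping a cluster. Members, lists and rules were chosen with earlier results of these data known, so no pattern here is independent support. Alternatives changed the joining distance, the fewest peaks, the enrichment, the overlap and the genes counted.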

Additional observations from a re-analysis of the deposited data

How the results depend on the processing

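There was 1 library per antibody, so no library could be left out. No paired analysis was possible because each group had 1 sample and no result came from a test. The number of clusters depended on the rule: 623 with joining at 10 kb, 1344 at 15 kb, 379 with at least 8 peaks and 198 with only peaks at least 8-fold over input. The share of protein-coding genes overlapping a cluster then became 3.49%, 9.69%, 2.91% and 1.055%, or 8.425% counting genes within 10 kb, and that of cornified envelope genes 10.5%, 60.5%, 15.8% and 15.8%. The share of clusters with HDAC3 was 100% with at least 8 peaks and 85.9% at 8-fold, where HDAC3 density was 0.592 per 10 kb. The share of cluster KLF4 peaks with HDAC3 was 24.2% at 8-fold and 33.2% with an overlap of at least 50% of the width. The share of other KLF4 peaks was 30.25% with joining at 15 kb, 31.2% with at least 8 peaks, 20.15% at 8-fold, 27.9% with the higher-scored 50% of HDAC3 peaks and 27.1% with 50% overlap.

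Alternatives for the difference between clusters and other KLF4 peaks were chosen after seeing the data. It was 4.003 points at 8-fold and 8.51 with the higher-scored 50% of HDAC3 peaks. In the 5 KLF4 score classes, from low to high, the cluster share was 14.65%, 18.7%, 25.6%, 32.9% and 55.3% and the difference 0.525, -4.41, -2.18, -4.71 and -3.69 points. With other peaks weighted to the cluster scores it was -4.23, and against lone peaks so weighted -5.77. Beyond 1 kb of a start it was 6.53 unweighted and -4.39 weighted to the cluster scores. Weighted by fold over input it was 3.32, and by fold over the surrounding 10 kb 8.23. The cause of the reversal was not tested. The difference kept its direction under each change of the joining rule, enrichment and overlap. In all, 20 of the alternative values moved by less than the counting interval, or for counts less than 1.5 times. More of them, 32, moved further, and 7 values of the difference between clusters and other KLF4 peaks reversed direction. Peaks near the callers' thresholds of 16 tags (HDAC3) and 19 tags (KLF4) limit what absence of a peak can show.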
